A study of Mus musculus with 6 samples.

Results

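Polarization of the mouse macrophage line RAW264.7 with lipopolysaccharide (LPS) and interferon-γ (IFN-γ) was measured by RNA sequencing in the absence of irradiation. The comparison was chosen by the sample labels and took 2 of the 6 libraries of the series, M1 against M0. M0 macrophages were RAW264.7 cells that received no polarizing agent and no radiation. M1 macrophages were the same cells kept for 24 h with LPS at 100 ng/mL and IFN-γ at 20 ng/mL, also without radiation. The other 4 libraries were M2 macrophages (20 ng/mL IL-4 for 24 h) and the irradiated states RM0, RM1 and RM2, which received 10 Gy of gamma radiation. By the methods of the study, cells were incubated for 24 h after irradiation. The doses given here are those of the methods, and a figure legend of the study gives lower doses of IFN-γ and IL-4. RM1 against RM0 is used below as a second pair with the same polarizing agents, and it shares no library with M1 against M0. Each library held the pooled RNA of 5 wells, so every condition is 1 library of 1 cell line. No difference between M1 and M0 therefore has a replicate check, no p-value is given for it, and whether M0 cells were kept in culture as long as M1 cells was not stated in the sources used here. Bone marrow is given as the source in the labels, although the culture protocol names the cell line.

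The deposited tables gave raw read counts for 24062 genes, and 11778 of them had at least 10 counts in 1 of the 2 libraries and were compared. Counts per library ranged from 17894937 to 18870516 over the series, with 18246280 in M0 and 18472101 in M1. Counts were scaled with the TMM method, which sets library factors so that most genes do not differ, and these factors were 1.09 for M0 and 0.800 for M1. Levels below are counts, or scaled CPM (counts scaled to a common library size) where stated, and differences are log2 ratios of M1 over M0 with a prior count of 2 added to steady low values. A gene was called higher or lower when the scaled values differed at least 2-fold. Intervals at 95% are exact Clopper-Pearson intervals of the split of reads between the libraries, and they cover counting error only. A library with 3 counts or fewer was treated as unable to set a fold change on its own. Where a ratio is still printed for such a gene, its size depends on the prior count.

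The cells carried the transcripts of macrophages in both libraries. Cd68 had 14910 counts in M0 and 15298 in M1, Spi1, which encodes the lineage factor PU.1, had 5837 and 5511, and Lyz2, which encodes lysozyme, had 469530 and 199329. Of 14 markers of T and NK cells and 10 of B cells, 0 reached 10 counts in M0 or M1, and Cd3e and Ms4a1 were at 0 in both. Among 12 markers of neutrophils and mast cells only S100a8 could be compared, while Elane, Ngp and Ltf were at 0 in both libraries and S100a9 had 7 and 3 counts. Of 12 fibroblast and mesenchymal markers, 3 could be compared, Dcn, Acta2 and Lum, while Col1a2 and Col3a1 were at 0. Pecam1 and Vwf were the 2 of 12 epithelial and endothelial markers that could be compared, and Epcam, Krt8 and Cdh1 were at 0.

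LPS is a bacterial wall component sensed by TLR4, which signals through MyD88 and TRIF to NF-κB, AP-1 and the interferon regulatory factors. IFN-γ binds its own receptor and acts through Janus kinases and STAT dimers, which bind GAS elements, and through IRF1, which binds interferon-stimulated response elements (ISRE). Macrophages given both agents are known for nitric oxide production, cytokine release, antigen presentation and interferon-induced defence of the cell itself, and for slower division.

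Of the 11778 genes compared, 1104 (9.37%) were called higher in M1 and 1569 (13.3%) lower, 2673 (22.7%) in either direction. These shares are the background against which each group of genes is read below. The genes called higher held 10.9% of all counts in M0 and 27.0% in M1, and those called lower held 5.62% and 1.54%. Higher genes reached further from the middle: 129 were at least 8-fold higher and 76 at least 8-fold lower, and at 16-fold the numbers were 58 and 9. The counting interval lay wholly beyond 2-fold for 704 of the genes called higher and 691 of those called lower. The median log2 ratio of all genes compared was -0.03.

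The balance of the 2 directions depended on the scaling. When libraries were scaled by their totals in place of TMM, the median of all genes moved to -0.46, and 601 genes (5.10%) were called higher and 2984 (25.3%) lower. Of all calls, 41.3% were higher with TMM, 43.3% with the size factors of DESeq2 and 16.8% with totals. Medians of gene groups are therefore read relative to the median of all genes, which moves by the same 0.44.

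**Figure D1:**
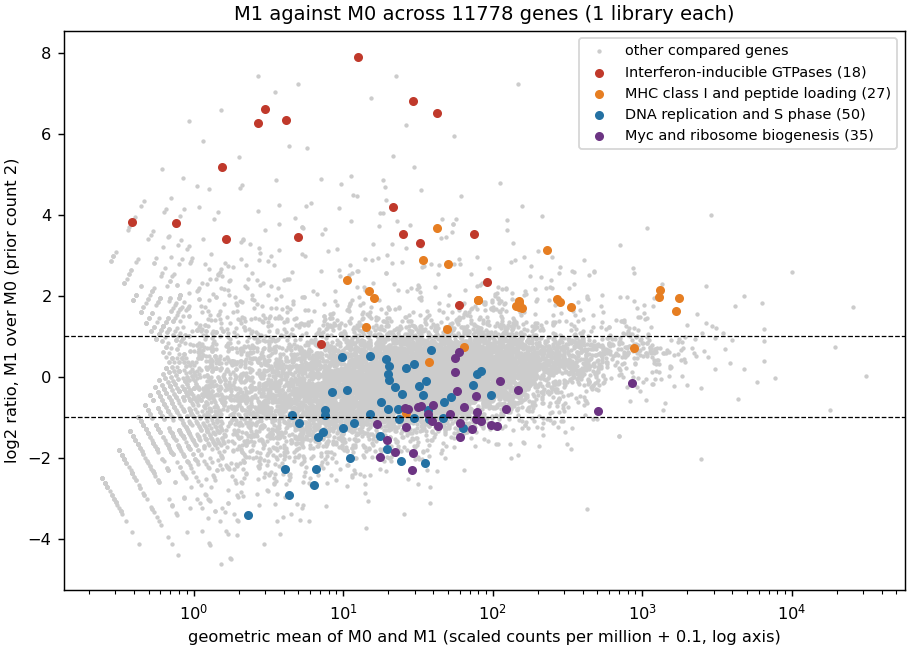
The log2 ratio of M1 over M0 for each of the 11778 genes compared is plotted against the geometric mean of its scaled CPM in the 2 libraries, and dashed lines mark 2-fold. Interferon-inducible GTPases (18 genes) and MHC class I genes (27) lie above most genes, while DNA replication genes (50) and ribosome biogenesis genes (35) lie mostly below 0.

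Gbp5, a guanylate-binding protein of the interferon-inducible GTPase family, had the largest ratio among genes with at least 100 counts in the higher library. Gbp5 (chromosome 3, 142496934 to 142522344 of mm10) had 14 counts in M0 and 2872 in M1, a log2 ratio of 7.90 (7.36 to 8.98). Of the 15 largest ratios, 6 belonged to guanylate-binding proteins, namely Gbp5, Gbp2b, Gbp4, Gbp2, Gbp6 and Gbp10. Cfb, which encodes complement factor B, went from 32 counts to 4367, a log2 ratio of 7.42, and 81.0% of its transcript windows are shared with an overlapping read-through gene model. Il33, an alarmin cytokine of the IL-1 family, had 235 counts in M0 and 26557 in M1, a log2 ratio of 7.23 (7.06 to 7.44). It was the most abundant of the 15 genes, at 1796 scaled CPM in M1. Car4, a membrane carbonic anhydrase, had 6 and 904 counts, and the serpin Serpina3f had 4 and 594. Slfn1, a member of the Schlafen family, had 58 and 3333 counts, and the noncoding RNA U90926 had 26 and 2486. AA467197 had 2 counts in M0 and 526 in M1, and Mir147, whose listed position lies inside it, had 1 and 225, so the reads of these overlapping genes cannot be told apart. Mir1938 was at 0 in M0 and had 126 counts in M1, which is at least 56.3-fold higher against a floor of 3 counts. The counts on these microRNA genes come from libraries that were not described as small RNA libraries, so they cannot be read as counts of mature microRNAs.

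In the other direction the largest ratio was that of Ndc80. Ndc80, a kinetochore component, had 150 counts in M0 and 3 in M1, a log2 ratio of -4.62 (-7.51 to -3.65). Kif2c, a kinesin that depolymerizes microtubules at the kinetochore, had 104 and 3, and Rad54l, which acts in homologous recombination, had 149 and 6. Atr, the kinase that responds to stalled replication forks, had 398 counts in M0 and 24 in M1, a log2 ratio of -3.54 (-4.29 to -3.03). Ptgs1, which encodes the constitutive cyclooxygenase COX-1, had 107 and 3, a log2 ratio of -4.15 (-7.03 to -3.15). For Ndc80, Kif2c and Ptgs1 the M1 library was at 3 counts, so the size and rank of their ratios are uncertain. Gpr84, a receptor for medium-chain fatty acids, had 243 and 14, and Angptl4, an inhibitor of lipoprotein lipase, had 127 and 5. Ppp1r10, a nuclear regulator of protein phosphatase 1, was the most abundant of the 15, with 1027 counts in M0 and 56 in M1. The remaining 7 were Ranbp3l, Jrk, AI506816, Pi16, Iqgap3, Slc17a6 and B3galt6, with 101 to 284 counts in M0 and 4 to 13 in M1. For Jrk the listed start and end, 74709247 to 74709322 on chromosome 15, span only a short stretch of the gene.

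**Figure D2:**
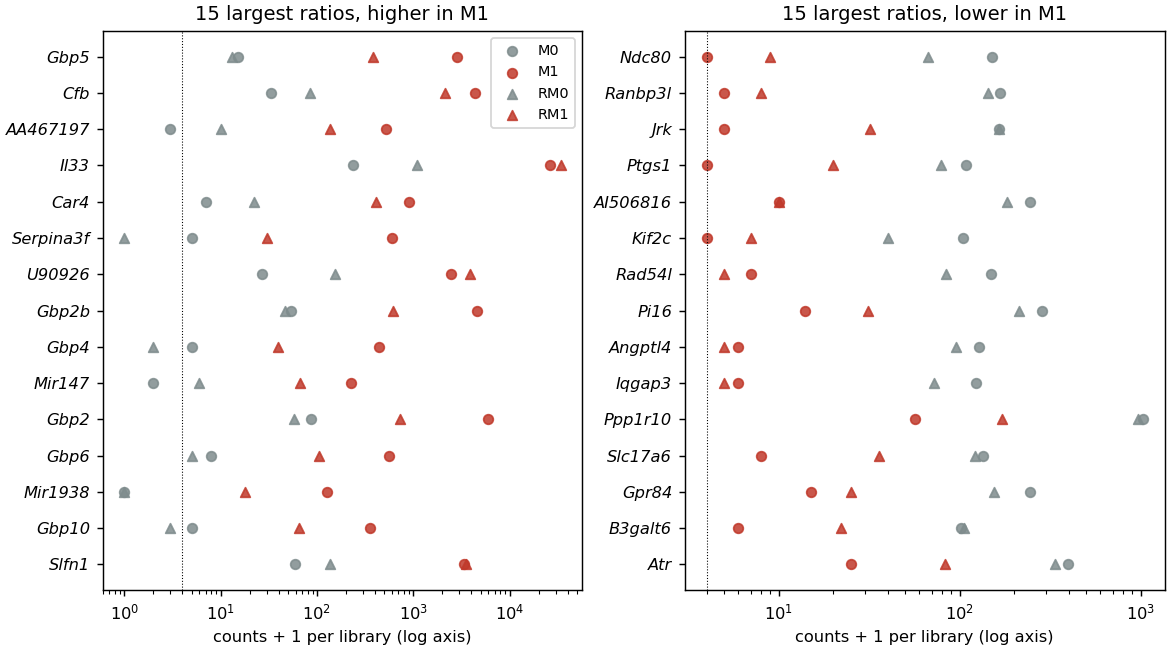
Counts plus 1 on a log axis in M0, M1, RM0 and RM1 for the 15 genes with the largest ratios in each direction, with circles for libraries without irradiation, triangles for irradiated ones and a dotted line at 3 counts. M1 and RM1 lie to the right of M0 and RM0 for every gene in the left panel, such as Gbp5 with 2872 and 385 against 14 and 12, and to their left for every gene in the right panel, such as Ndc80 with 3 and 8 against 150 and 66.

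Interferon-inducible GTPases, which coat the vacuoles of intracellular pathogens, were the group furthest above the rest. Of 18 members compared, 17 were called higher and 0 lower, with a median log2 ratio of 3.80, and their summed level was 133 scaled CPM in M0 and 1900 in M1, 14.3 times as high. Gbp2b had 53 counts in M0 and 4580 in M1, a log2 ratio of 6.80 (6.47 to 7.28), and Gbp2 had 86 and 6032, a log2 ratio of 6.52 (6.25 to 6.88). The immunity-related GTPases Igtp, Irgm1 and Irgm2 had 431, 803 and 638 counts in M0 and 3743, 3061 and 1634 in M1. These 3 genes started from higher counts in M0 than any guanylate-binding protein and had smaller ratios, 3.54, 2.35 and 1.78. Iigp1 had 3 counts in M0 and 138 in M1. Gvin1 was the member not called, with 104 and 138 counts and a log2 ratio of 0.82, and 97.8% of its transcript windows are shared with near-identical genes. For Gbp6, Gbp10 and Tgtp2 this shared part was 51.3%, 70.9% and 80.4%, so reads of these copies may be split between them.

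Promoter windows of RefSeq (GRCm38.p6, 250 bases before to 50 after the start) are shown for 6 genes. These had the most counts in the higher library among the 15 largest ratios in each direction, where a window was found and held a motif. For Cfb no window was found. Capitals mark matches on either strand to a pair of ISRE half-sites (GAAA and GAAA, 2 bases apart), GAS (TTCNNNGAA), the κB site (GGG and CC, 5 bases apart), the CHR element of G2/M genes (TTTGAA), the CCAAT box or the E2F site (TTNGCGC).
Il33, chr19:29924863-29925162, + strand: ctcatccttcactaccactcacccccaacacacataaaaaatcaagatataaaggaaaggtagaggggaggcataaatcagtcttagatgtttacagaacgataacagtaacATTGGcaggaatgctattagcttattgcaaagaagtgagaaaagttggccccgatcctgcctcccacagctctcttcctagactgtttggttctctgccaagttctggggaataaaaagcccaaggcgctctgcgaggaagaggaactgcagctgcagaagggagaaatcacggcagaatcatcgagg
Gbp2, chr3:142620413-142620712, + strand: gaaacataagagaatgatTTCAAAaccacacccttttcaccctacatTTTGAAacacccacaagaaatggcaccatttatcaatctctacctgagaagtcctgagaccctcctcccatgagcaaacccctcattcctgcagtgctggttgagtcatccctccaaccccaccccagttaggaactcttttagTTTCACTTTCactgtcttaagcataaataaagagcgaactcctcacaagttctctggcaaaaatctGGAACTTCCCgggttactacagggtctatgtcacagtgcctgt
Gbp2b, chr3:142594597-142594896, + strand: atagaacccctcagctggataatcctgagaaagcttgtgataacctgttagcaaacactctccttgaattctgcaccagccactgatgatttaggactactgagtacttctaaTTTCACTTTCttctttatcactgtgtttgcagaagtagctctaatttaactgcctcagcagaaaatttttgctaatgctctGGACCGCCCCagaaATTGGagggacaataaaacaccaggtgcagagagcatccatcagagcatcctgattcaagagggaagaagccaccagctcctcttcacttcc
Slfn1, chr11:83116570-83116869, + strand: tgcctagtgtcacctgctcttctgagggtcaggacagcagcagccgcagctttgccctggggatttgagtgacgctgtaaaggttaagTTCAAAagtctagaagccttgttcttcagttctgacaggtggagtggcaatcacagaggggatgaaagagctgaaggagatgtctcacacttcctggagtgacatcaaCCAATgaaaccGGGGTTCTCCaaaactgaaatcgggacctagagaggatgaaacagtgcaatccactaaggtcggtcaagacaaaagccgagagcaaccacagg
Gbp5, chr3:142496684-142496983, + strand: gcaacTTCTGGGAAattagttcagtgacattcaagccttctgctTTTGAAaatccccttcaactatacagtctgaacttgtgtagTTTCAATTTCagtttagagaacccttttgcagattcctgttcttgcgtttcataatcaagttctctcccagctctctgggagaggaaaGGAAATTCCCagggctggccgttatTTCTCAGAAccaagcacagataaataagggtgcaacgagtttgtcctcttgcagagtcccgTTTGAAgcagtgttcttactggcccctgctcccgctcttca
U90926, chr5:92215359-92215658, - strand: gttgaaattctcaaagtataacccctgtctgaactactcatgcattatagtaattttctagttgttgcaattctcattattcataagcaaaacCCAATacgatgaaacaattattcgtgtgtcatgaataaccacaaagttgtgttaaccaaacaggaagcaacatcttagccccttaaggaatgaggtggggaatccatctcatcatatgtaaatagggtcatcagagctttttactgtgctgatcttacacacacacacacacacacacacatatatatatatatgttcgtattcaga

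These 3 guanylate-binding protein windows each held the ISRE pair, as TTTCACTTTC in Gbp2 and Gbp2b and TTTCAATTTC in Gbp5, and each held a κB match. Gbp5 also held 2 GAS matches, TTCTGGGAA and TTCTCAGAA. The Il33 and U90926 windows held only a CCAAT box, and Slfn1 held a κB, a CHR and a CCAAT match. Over the 32851 promoter windows of the table, 3.44% held the ISRE pair, 8.30% GAS, 50.8% κB, 17.9% CHR, 37.4% CCAAT and 6.36% E2F, so a κB or CCAAT match is common. A match is a description of these letters and does not show binding. The Gbp2 window ends at 142620712, upstream of the start listed for the gene in the count tables, 142624575. It therefore belongs to another start of Gbp2 than the listed one. Windows were found for 10 of the 18 GTPases and 33 of the 43 antiviral genes, under 80% of each group, so the share of these groups with a motif is void and not given.

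Interferon-stimulated antiviral genes were higher as a broad group. Of 43 compared, 29 were called higher and 0 lower, with a median log2 ratio of 1.36, and scaling by totals left 21 called higher and 0 lower. Rsad2, which encodes viperin, had 1061 counts in M0 and 12449 in M1, a log2 ratio of 3.97 (3.89 to 4.07). Isg15, a ubiquitin-like modifier, had 2841 and 12669, and Oasl2, a relative of the oligoadenylate synthetases, had 96 and 2661. Ifit2 and Ifit3, which bind foreign RNA, had 260 and 50 counts in M0 and 4273 and 861 in M1. Zbp1, a sensor of Z-form nucleic acid, had 293 and 3251 counts, and the restriction factor Bst2 had 2997 and 10211. The 14 members not called included the cytosolic RNA sensors Ddx58 (RIG-I) with 2482 and 3430 counts and Ifih1 (MDA5) with 1174 and 1548, at log2 ratios of 0.89 and 0.82. Adar, the RNA-editing enzyme, had 4579 and 3580 counts and a log2 ratio of 0.07.

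Among 29 genes of JAK-STAT signaling and the IRF family, 14 were called higher and 0 lower (10 and 2 with totals), with a median of 0.86. Irf1 had 419 counts in M0 and 8628 in M1, a log2 ratio of 4.78 (4.65 to 4.93), the largest of this group. Irf7, the factor that sustains interferon-α expression, had 5965 and 56496 counts, a log2 ratio of 3.67 (3.63 to 3.71). Irf7 and Irf1 reached 3821 and 584 scaled CPM in M1. Stat2 had 1294 and 4082 counts, and Irf8 had 1493 and 6225. The feedback inhibitors Socs1 and Socs3 had 18 and 12704 counts in M0 and 205 and 31947 in M1, so both were called higher from very different levels. Receptor chains were not called: Ifngr1 had 492 and 246 counts with a log2 ratio of -0.57, Ifngr2 had 1765 and 1742 with 0.40, and Ifnar1 had 1412 and 1686 with 0.68. Irf3 and Irf5, factors downstream of pathogen sensors, had ratios of -0.57 and -0.48. Ifnb1, the gene for interferon-β, had only 10 counts in M0 and 6 in M1.

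Antigen presentation genes of MHC class I and of class II differed. For class I and peptide loading, 23 of 27 genes were called higher and 0 lower (21 and 1 with totals), with a median of 1.88 (1.44 with totals). B2m, the invariant light chain, had 12396 counts in M0 and 40875 in M1, a log2 ratio of 2.14 (2.12 to 2.17), and the heavy chain H2-D1 had 17707 and 50745. The immunoproteasome subunits Psmb8, Psmb9 and Psmb10 had 1578, 249 and 233 counts in M0 and 4132, 1378 and 2245 in M1. Tap1, a chain of the peptide transporter TAP, had 1553 and 10148 counts, a log2 ratio of 3.13 (3.05 to 3.21), and its partner Tap2 had 1540 and 3839. Nlrc5, the activator of class I genes, had 650 and 1099. H2-Q6 and H2-Q8 had the same counts as each other in all 6 libraries, 818 in M0 and 2287 in M1, so they are 1 measurement and not 2. Of the 4 genes not called, Erap1, Pdia3 and H2-M3 had ratios of 0.73, 0.71 and 0.36, and H2-T24 had -0.89.

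MHC class II genes were near the limit of detection, and Ciita, their activator, was at 0 in M0 and in M1. Of 8 members compared, 1 was called higher and 1 lower, with a median of -0.66. H2-Aa was at 0 in both libraries, H2-Ab1 had 23 and 8 counts, and H2-Eb1 had 29 and 13. Cd74, the invariant chain, was abundant, with 21607 counts in M0 and 15425 in M1, and its log2 ratio was -0.06. The member called higher was the protease Ctss, with 4886 and 9789 counts, and the member called lower was H2-Oa, with 31 and 1. Of 13 costimulatory and checkpoint ligands, 8 were called higher and 0 lower (6 and 1 with totals), with a median of 1.28. Cd274, which encodes PD-L1, had 1349 and 8687 counts, a log2 ratio of 3.11 (3.03 to 3.19). Cd40, Cd80 and Cd86 had 582, 1451 and 176 counts in M0 and 2550, 4067 and 493 in M1. Slamf7 had 66 and 1473 counts, and Cd276 had 422 and 165, with a ratio of -0.92 that was not called.

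**Figure D3:**
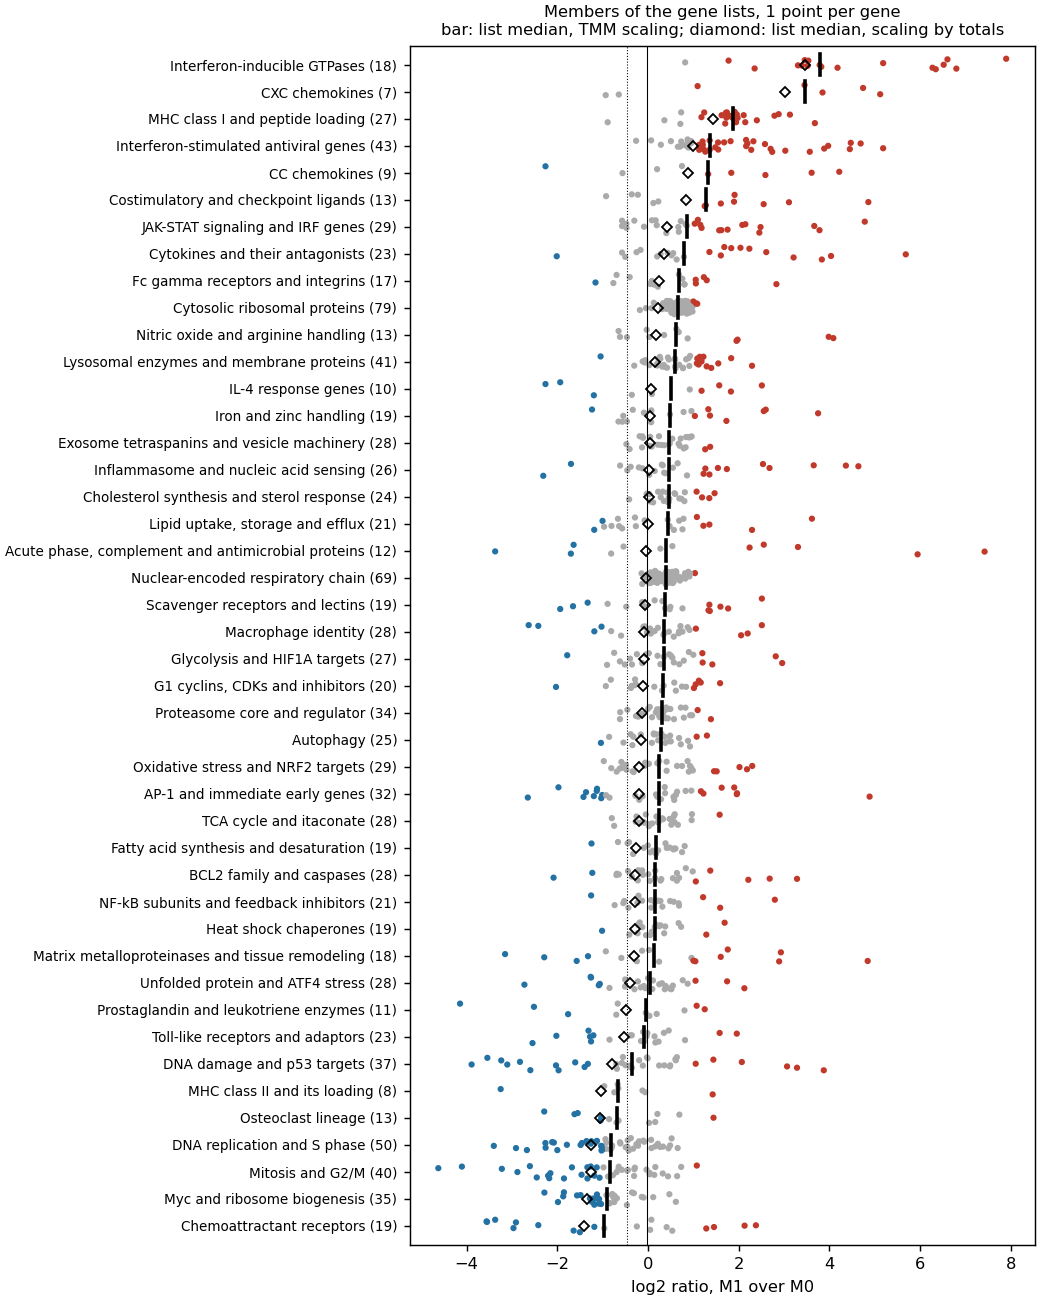
Log2 ratio of M1 over M0 for each compared member of 44 gene lists, with red points called higher, blue points called lower, a bar at the list median with TMM and a diamond at the median with totals. The number of compared genes stands after each name. List medians run from 3.80 for interferon-inducible GTPases to -0.96 for chemoattractant receptors, and every diamond lies to the left of its bar.

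Nitric oxide and arginine genes were led by Nos2, which encodes inducible nitric oxide synthase. Nos2 had 14393 counts in M0 and 169925 in M1, a log2 ratio of 3.99 (3.96 to 4.01), and its share of all counts was 0.0789% in M0 and 0.920% in M1. Slc7a2, a cationic amino acid transporter that brings in arginine, had 11 and 165 counts. Ass1, which regenerates arginine from citrulline, had 53 and 160 counts, and the tables list it over a short stretch, 31520372 to 31520670 on chromosome 2. Sat1, an enzyme of polyamine breakdown, had 12113 and 34944. These 4 of 13 members were called higher and 0 lower (4 and 2 with totals), with a median of 0.62. Odc1, which makes putrescine, had 155430 and 113579 counts and a ratio of -0.03, and Gch1, which makes the cofactor of nitric oxide synthase, had 2770 and 2641 with 0.35. Arg1 had 0 and 5 counts and was not compared.

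Of 23 cytokines and antagonists, 11 were called higher and 1 lower, with a median of 0.79. Il18bp, the decoy of IL-18, had 10 counts in M0 and 464 in M1, a log2 ratio of 5.68. Il27, Il1a and Il6 had 84, 57 and 97 counts in M0 and 1052, 627 and 449 in M1. Il1rn, the IL-1 receptor antagonist, was the most abundant of those called, with 24390 and 85639 counts. The member called lower was Il23a, with 39 and 6 counts. Tnf had 9468 and 8548 counts, a log2 ratio of 0.28 (0.23 to 0.32) with TMM and -0.17 with totals. Il1b had 2638 and 2819, a ratio of 0.52, and Csf3, which encodes G-CSF, had 28503 and 31231, a ratio of 0.56. Tnf, Il1b and Csf3 were thus not called. Csf3 held 0.156% of all counts in M0 and 0.169% in M1.

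Cxcl10, Cxcl11 and Cxcl9, ligands of CXCR3 and known targets of interferon-γ, had 117, 6 and 0 counts in M0 and 1278, 161 and 54 in M1. For Cxcl9 this is at least 24.1-fold higher against a floor of 3 counts. With Cxcl3 (288 and 2366 counts) and Cxcl16 (867 and 1381), 5 of 7 CXC chemokines were called higher and 0 lower (4 and 2 with totals). Cxcl2, a neutrophil attractant, had 35257 and 16816 counts and a ratio of -0.64, and the summed level of the CXC genes in M1, of which Cxcl2 was the most abundant, was 0.810 times that in M0. In the irradiated pair Cxcl2 had 35858 counts in RM0 and 47681 in RM1, a ratio of 0.64 in the other direction. Of 9 CC chemokines, 5 were called higher, Ccl5, Ccl12, Ccl6, Ccl2 and Ccl9, and 1 lower, Ccl22. Ccl5 had 718 and 9987 counts, a log2 ratio of 4.22 (4.11 to 4.33). Ccl3 and Ccl4, which attract monocytes and T cells, had 56982 and 25632 counts in M0 and 48805 and 12939 in M1, with ratios of 0.20 and -0.56. Ccl22, a ligand of CCR4 that IL-4 is known to induce in macrophages, had 767 and 118 counts, a log2 ratio of -2.26.

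Enzymes of prostaglandin and leukotriene synthesis were called in both directions. Ptgs2, the inducible cyclooxygenase COX-2, had 47271 counts in M0 and 74139 in M1, a log2 ratio of 1.07 with TMM and 0.63 with totals, so its call depended on the scaling. Ptges, the inducible prostaglandin E synthase, had 673 and 1196 counts and a ratio of 1.25 with TMM. On the other side, Ptgs1 had 107 and 3 counts, Alox5, the 5-lipoxygenase, had 1291 and 167, and Ltc4s, the leukotriene C4 synthase, had 219 and 47. These were the 2 of 11 members called higher and the 3 called lower, and with totals 0 were higher and 5 lower. Among 12 acute phase, complement and antimicrobial genes, 5 were called higher and 3 lower. Saa3, an acute phase protein made by macrophages, had 136 counts in M0 and 6345 in M1, a log2 ratio of 5.95 (5.72 to 6.22). Lcn2, which binds bacterial siderophores, had 7173 and 31387 counts, Slpi, a protease inhibitor, had 860 and 6361, and Camp had 2 and 13. Those called lower included the complement receptors C5ar1 and C3ar1, with 1630 and 5706 counts in M0 and 116 and 1363 in M1.

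Toll-like receptor and adaptor genes were called lower more often than higher, but their median was near that of all genes. Of 23 compared, 6 were called lower and 2 higher, with a median of -0.09 beside -0.03 for all genes. In RM1 against RM0, 1 of the 23 was called lower and 1 higher, with a median of 0.10. Tlr4, the LPS receptor, had 1199 counts in M0 and 219 in M1, a log2 ratio of -2.02 (-2.24 to -1.82). The endosomal receptors Tlr7, Tlr9 and Tlr13 had 1046, 156 and 426 counts in M0 and 313, 47 and 53 in M1, and Tlr8 had 19 and 5. Cd180, an inhibitor of TLR4 signaling, had 516 and 166. The LPS co-receptor Cd14 was abundant and not called, with 67308 and 63984 counts and a ratio of 0.35, and Tlr2 had 1756 and 1176 with -0.15. The 2 members called higher were the kinase Irak2, with 1095 and 3175 counts, and Irg1, which encodes the itaconate-producing enzyme, with 11840 and 26393.

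Of 26 inflammasome and nucleic acid sensing genes, 10 were called higher and 2 lower, and 14 did not pass 2-fold. The interferon-inducible p200 family members Ifi205, Pyhin1, Ifi204 and Mnda had 3, 83, 736 and 355 counts in M0 and 94, 1305, 3524 and 1542 in M1. Mnda shares 56.9% of its transcript windows with other members. Casp1 and Casp4, the inflammatory caspases, had 821 and 747 counts in M0 and 2047 and 1624 in M1, and their substrate Gsdmd had 1696 and 3041. Nlrp3, the sensor that recruits Casp1, went the other way, with 1871 counts in M0 and 280 in M1, a log2 ratio of -2.31 (-2.50 to -2.13), and Nlrp1b had 240 and 54. Pycard, the adaptor between sensor and caspase, was listed at 0 in both libraries. Mb21d1 (cGAS) and Tmem173 (STING) had ratios of 0.33 and -0.46 and were not called.

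Of 21 NF-κB subunit and feedback inhibitor genes, 3 were called higher and 1 lower (2 and 2 with totals), with a median of 0.15 (-0.29 with totals). Tnfaip3, which encodes the deubiquitinase A20, had 452 and 2352 counts, Nfkbia, which encodes IκBα, had 6242 and 14025, and Nfkb2 had 1771 and 3067. N4bp1 was called lower, with 1485 and 463 counts. The subunit genes Rela, Rel and Relb had ratios of -0.54, -0.74 and -0.21. Among 32 AP-1 and immediate early genes, 7 were called higher and 9 lower. Batf2, a partner of IRF1, had 24 counts in M0 and 575 in M1, a log2 ratio of 4.89 (4.42 to 5.66), and Atf3, Zfp36 and Dusp1 had 4259, 7927 and 1235 counts in M0 and 12342, 23058 and 2842 in M1. Egr1 had 1570 and 185 counts, a log2 ratio of -2.65 (-2.89 to -2.44), and Fosl1 had 1240 and 234. Fos and Jun had 2786 and 3180 counts in M0 and 1030 and 1315 in M1, with ratios of -1.01 and -0.85. Spred1 and Dusp6, inhibitors of the ERK pathway that ERK itself induces, had 7018 and 2746 counts in M0 and 1950 and 934 in M1.

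Chemoattractant receptors had the lowest median of all lists, -0.96, with 9 of 19 members called lower and 4 higher. C5ar1 had 1630 counts in M0 and 116 in M1, a log2 ratio of -3.37 (-3.67 to -3.12). Cx3cr1, the fractalkine receptor, had 526 and 72, Cxcr3 had 118 and 30, and Ccr2 had 85 and 27. Gpr183, the oxysterol receptor, had 109 and 9 counts, and Ccr7, the lymph node homing receptor, had 39 and 1. The 4 called higher were Adora2a (82 and 273 counts), Hcar2 (2650 and 4817), Ccrl2 (233 and 479) and Fpr2 (6 and 30). Adora2a encodes an adenosine receptor, Hcar2 a receptor for niacin and ketone bodies, and Ccrl2 a receptor for chemerin that does not signal.

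Of 28 macrophage identity genes, 4 were called higher (14.3%) and 4 lower (14.3%), beside 9.37% and 13.3% of all genes compared. Their median was 0.35 (-0.09 with totals), and with totals 3 were called higher and 6 lower. Emr1, which encodes F4/80, had 1623 counts in M0 and 5027 in M1, a log2 ratio of 2.05 (1.97 to 2.14). Csf1r, the receptor for M-CSF, had 13259 and 4855, a ratio of -1.03 whose interval, -1.07 to -0.98, reaches inside 2-fold. Trem2, a lipid receptor of tissue macrophages, had 693 and 82 counts. The other genes called were Mrc1 (10 and 50 counts), Maf (3 and 16) and Fcer1g (3566 and 5528), which were higher, and Ccr2 and Cx3cr1, which were lower. Maf passed the filter of 10 counts only through M1, where it was high. Itgam, Tyrobp, Ptprc and Spi1 had ratios of 0.22, 0.36, 0.05 and 0.34 with TMM, and with totals these 4 ratios were -0.22, -0.08, -0.39 and -0.10.

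Of 17 Fcγ receptor and integrin genes, 5 were called higher and 1 lower (1 and 3 with totals): Fcgr1, the high-affinity IgG receptor, had 978 and 5200 counts, Fcgr3 had 741 and 1358, Fcgr4 had 387 and 600, Fcer1g had 3566 and 5528, Itga5 had 6094 and 10670, and Itga6, the one called lower, had 736 and 245. Of 19 scavenger receptors and lectins, 6 were called higher and 3 lower (3 and 4 with totals), with Clec4e, which senses mycobacterial glycolipid, at 2790 and 7085 counts and Siglec1 at 3193 and 6003. Clec5a had 3791 and 897 counts and was lower. Mrc1, Cd36 and Il4ra, genes that IL-4 is known to raise in macrophages, were higher in M1, with 10, 6717 and 672 counts in M0 and 50, 12800 and 1783 in M1. In the M2 library itself Mrc1, Cd36 and Il4ra had 6, 11165 and 600 counts. Of 21 listed IL-4 response genes, 10 could be compared, 4 were called higher and 3 lower, and Retnla and Chil3 were at 0 in M0 and M1.

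Matrix and osteoclast genes included members called in both directions. Timp1, an inhibitor of metalloproteinases, had 11 counts in M0 and 280 in M1, a log2 ratio of 4.84, and Mmp13 had 5 and 39. Mmp9, a gelatinase, had 2807 and 427, a log2 ratio of -2.29 (-2.44 to -2.15), and Thbd, which encodes thrombomodulin, had 315 and 25. Over the whole list, 7 of 18 were called higher and 4 lower (5 and 6 with totals). Of 13 osteoclast lineage genes, 5 were called lower and 1 higher: Dcstamp, needed for cell fusion, had 537 and 129 counts, Ctsk had 2270 and 819, Fosl2 had 6559 and 2391, and Oscar had 12 and 2, Mmp9 was the fifth, and Acp5 was higher with 595 and 1210. Spp1, which encodes osteopontin, was among the most abundant genes, with 619470 and 469148 counts, and its log2 ratio was 0.02 with TMM and -0.42 with totals.

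In central metabolism few genes passed 2-fold. Of 27 glycolysis and HIF1A target genes, 5 were called higher and 1 lower (2 and 4 with totals), with a median of 0.34 (-0.10 with totals). Pfkfb3, which makes the activator of phosphofructokinase, had 1773 counts in M0 and 10289 in M1, a log2 ratio of 2.96 (2.89 to 3.03). Slc2a1, which encodes the glucose transporter GLUT1, had 12727 and 25368, and the other genes called higher were Pgk1, Ndrg1 and Gapdh. Gapdh had only 156 and 829 counts in a gene that cells use at a high level, and it has near-identical pseudogenes, so its value is uncertain. Pdk1, the kinase that closes pyruvate dehydrogenase, had 545 and 117 counts and was lower. Ldha, Pkm and Hk2 had ratios of 0.27, -0.13 and -0.40. Of 28 genes of the TCA cycle and itaconate synthesis, Irg1 was the only one called, and Idh1 and Idh3a had ratios of -0.75 and -0.80. Of 69 nuclear-encoded respiratory chain genes, 1 was called higher, Cox6a1, and 0 lower, with a median of 0.40 that was -0.04 with totals.

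Of 21 genes of lipid uptake, storage and efflux, 5 were called higher and 2 lower with TMM, and 2 and 6 with totals. Olr1, a receptor for oxidized LDL, had 15 and 155 counts, Npc2, which moves cholesterol out of lysosomes, had 12176 and 44513, and Cd36 had 6717 and 12800. Fabp5 and Lipa were the other genes called higher. Abca1, the cholesterol exporter, had 2376 and 883 counts, and Nr1h3, which encodes LXRα, had 76 and 24. Plin2, the coat protein of lipid droplets, had 36307 and 15490 with a ratio of -0.81. Of 24 cholesterol synthesis genes, 4 were called higher with TMM, among them Insig1, Tm7sf2 and Fdps, and 1 with totals. Of 19 fatty acid synthesis genes, 1 was called, Fasn, the fatty acid synthase, with 2329 and 731 counts and a log2 ratio of -1.25.

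Ferritin genes had the largest absolute gains of all genes. Fth1, the ferritin heavy chain, had 279068 counts in M0 and 689738 in M1, and its share of all counts was 1.53% in M0 and 3.73% in M1. Its log2 ratio was 1.73 with TMM and 1.29 with totals. Ftl1, the light chain, had 80184 and 361597 counts, 0.439% and 1.96% of the library, and 60.4% of its transcript windows are shared with ferritin pseudogenes. Hamp, which encodes hepcidin, had 2 and 40 counts. Slc40a1, the iron exporter that hepcidin removes, had 25 and 7 counts, and Tfrc, the transferrin receptor, had 6568 and 3303 with a ratio of -0.57. In all, 7 of 19 iron and zinc genes were called higher and 1, Slc40a1, lower with TMM, and 4 and 3 with totals. Of 29 oxidative stress genes, 5 were called higher and 0 lower with TMM, and 5 and 6 with totals. Those higher with TMM were Hmox1 (3144 and 11536 counts), which releases iron from heme, Sod2 (2097 and 7105), Cybb (5324 and 16080), the catalytic subunit of the phagocyte oxidase, Blvrb and Prdx5.

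Of 28 genes of the unfolded protein and ATF4 stress responses, 3 were called higher and 5 lower, shares near the background. Hspa5, the chaperone BiP, had 45017 counts in M0 and 112452 in M1, a log2 ratio of 1.74 (1.73 to 1.76), and Ddit3, which encodes CHOP, had 1567 and 5102. Hsp90b1 was the third gene called higher, with a ratio of 1.05. The 5 called lower were Chac1 (1929 and 216 counts), Atf5 (1067 and 330), Slc7a5 (6531 and 2037), Trib3 (2248 and 789) and Shmt2 (6938 and 2475), which are known targets of ATF4, as is Ddit3. Atf4 itself had 7448 and 5556 counts and a ratio of 0.00. Of 19 heat shock chaperones, Hspa8 and Hspa1b were called higher and Hspd1 lower.

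Genes of DNA replication were lower in M1 as a group. Of 50 compared, 20 were called lower and 0 higher, with a median of -0.81 (-1.25 with totals). The MCM helicase genes Mcm2, Mcm3 and Mcm7 had 1944, 1441 and 997 counts in M0 and 609, 247 and 175 in M1, and the log2 ratio of Mcm3 was -2.11 (-2.32 to -1.92). Ccne2, a cyclin of S phase entry, had 148 and 9 counts, while its relative Ccne1 had 608 and 714 with a ratio of 0.65. Pole, the leading strand polymerase, had 319 and 36, and Cdc6, a loader of the helicase, had 285 and 43. Pcna, the sliding clamp, had 2249 and 1229 and was not called, at -0.45.

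Mitotic genes were also lower, but unevenly. Of 40, 18 were called lower and 1 higher, with a median of -0.83 (-1.26 with totals). Ccnb2, Cenpf and Kif20a had 68, 63 and 166 counts in M0 and 4, 5 and 19 in M1. Other central mitotic genes did not differ by 2-fold: Cdk1 had 501 and 305 counts, a ratio of -0.29, Top2a had 959 and 580, a ratio of -0.30, and Tpx2 had 728 and 848, a ratio of 0.64. Cenpa, the centromeric histone, was the gene called higher, with 93 and 148 counts and a ratio of 1.08. Of the 36 promoter windows of mitotic genes, found for 34 of the 40, 75% held the CHR letters and 77.8% a CCAAT box, beside 17.9% and 37.4% of all windows. Of the 50 windows of replication genes, found for 41 of the 50, 36.0% held the E2F letters, beside 6.36% of all windows. Of the windows found for 8856 of the 11778 genes compared, 12.2% held the CHR letters, 38% a CCAAT box and 11.1% the E2F letters. These shares describe the lists and not the part of them that was called.

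Checkpoint and G1 genes included members in both directions. Of 37 DNA damage and p53 target genes, 6 were called higher and 11 lower (5 and 14 with totals). Gadd45b, a stress response gene that NF-κB induces, had 644 and 7074 counts, Fas, a death receptor, had 132 and 974, and Plk3 had 1025 and 3211. Brca2, which acts in homologous recombination, had 165 and 16 counts. Trp53 had 2690 and 1246, a ratio of -0.69. Among 20 G1 genes the CDK inhibitors Cdkn1a (p21) and Cdkn2d had 11704 and 533 counts in M0 and 18089 and 1199 in M1, with ratios of 1.05 and 1.59. Btg1, Ccnd3 and Rb1 were also called higher with TMM, and Btg2, an antiproliferative p53 target, was the only one lower, with 1353 and 246 counts. Scaled by totals, Cdkn2d was the only 1 of these 5 ratios above 2-fold.

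The medians of ribosome biogenesis genes and of ribosomal protein genes lay on opposite sides of the median of all genes. Of 35 genes of Myc and ribosome biogenesis, 16 were called lower and 0 higher, with a median of -0.91 (-1.35 with totals). Gnl3, which encodes nucleostemin, had 1270 counts in M0 and 193 in M1, a log2 ratio of -2.28 (-2.52 to -2.07). Polr1b, a subunit of RNA polymerase I, had 692 and 129, and the box C/D and H/ACA particle genes Nop58, Fbl, Gar1 and Dkc1 had 2913, 2407, 840 and 667 counts in M0 and 955, 849, 172 and 167 in M1. Myc itself had 951 and 1086 counts, a ratio of 0.61 with TMM and 0.17 with totals. In contrast, 77 of 79 cytosolic ribosomal protein genes lay above the median of all genes, with a list median of 0.65 (0.21 with totals). Only 3 of them were called higher, Rplp0, Rps20 and Rpl21, and 0 lower, and with totals 0 were called. The share called higher, 3.80%, was under the 9.37% of all genes compared. After removal of GC content and length trends, the median was 0.43 for ribosomal protein genes and -0.97 for ribosome biogenesis genes. Many ribosomal protein genes share sequence with pseudogenes, and Rpl21 had only 6 and 11 counts.

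Of 41 lysosomal genes, 11 were called higher and 1, Ctsk, lower, with a median of 0.60 (0.16 with totals), and with totals 3 were called higher. The proteases Ctsl and Ctsb had 66765 and 86236 counts in M0 and 177433 and 145770 in M1, and Psap, the precursor of the saposins, had 26843 and 58589. The summed level of the list was 25834 scaled CPM in M0 and 55469 in M1. Of 34 proteasome genes outside the immunoproteasome, 2 were called higher, Pomp, the assembly factor, and Psmd8, and 0 lower, with a median of 0.30 (-0.14 with totals). With totals, 0 of the 34 were called higher and 2 lower. Of 25 autophagy genes, Gabarapl1 and Gabarap were called higher and Wipi2 lower. Among 28 BCL2 family and caspase genes, 5 were called higher, among them Fas, Tnfrsf1b (6775 and 32447 counts), Casp6 (295 and 1025) and Bak1, and 2 lower, Bmf (763 and 133) and Bcl2 (707 and 224), while with totals 3 were higher and 5 lower. Of 28 exosome and vesicle machinery genes, Sdc4 and Flot2 were called higher and 0 lower, and Cd63, Cd9 and Cd81 had ratios of 0.84, 0.70 and -0.13.

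By absolute change in scaled CPM, the 10 largest gains were Fth1, Ftl1, Nos2, Eef1a1, Ctsl, Vim, Ctsb, Hspa5, Il1rn and Ctsd. Of these Eef1a1, a translation elongation factor with 296024 and 369078 counts, and Ctsd, with 94146 and 130400, were under 2-fold. The intermediate filament gene Vim had 47864 counts in M0 and 141777 in M1. The 10 largest losses were Lyz2, Rn45s, Lyz1, Lars2, Plin2, Akr1b3, Gm6644, Cxcl2, Pkm and Actb. Lyz2 and Lyz1 had ratios of -0.81 and -0.54 and were not called with TMM. Akr1b3 and Gm6644 are listed over the same place on chromosome 6, from 34317340, and had the same counts in 5 of the 6 libraries, 22879 in M0 and 6235 in M1, so their reads cannot be told apart.

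**Figure D4:**
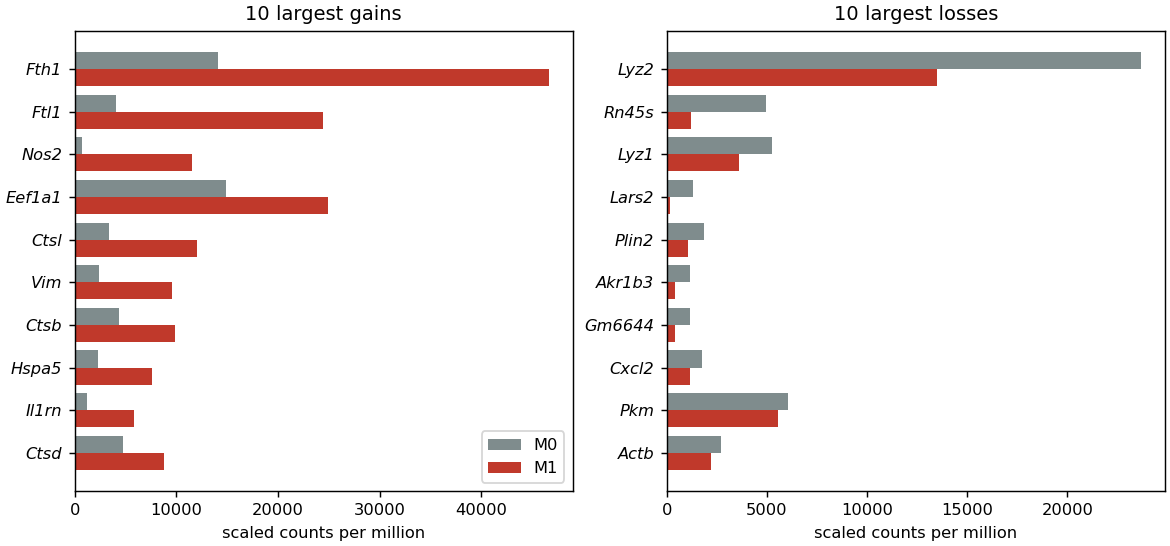
Scaled CPM in M0 (grey) and M1 (red), 1 library each, for the 10 genes with the largest gains and the 10 with the largest losses. Bars start at 0, and the panels have different scales. Fth1 has the largest gain, from 14070 to 46649 scaled CPM, and Lyz2 the largest loss, from 23673 to 13481.

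Counts of Rn45s, the ribosomal RNA precursor, in the libraries without irradiation were 97949 for M0, 17954 for M1 and 95075 for M2, and in the irradiated ones 31217 for RM0, 20154 for RM1 and 34322 for RM2. Lars2, a mitochondrial tRNA synthetase gene, had 26008, 2038, 31635, 6397, 1818 and 9193 in the same order. Both were high in M0 and M2, lowest in M1 and RM1, and between these in RM0 and RM2. Rn45s and the ribosome biogenesis list were both lower in M1 than in M0. In RM1 against RM0 the Rn45s ratio was -0.40 and was not called, while the median of that list was -0.97. Whether Rn45s and the list are linked, or rRNA removal differed between the libraries, was not tested. The Rn45s share of all counts was 0.537% in M0 and 0.0972% in M1.

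Among genes counted on noncoding RefSeq accessions, 149 of 721 were called higher (20.7%) and 116 lower (16.1%), beside 955 and 1453 of 11057 on coding accessions (8.64% and 13.1%). The noncoding group also holds Fth1, which encodes a protein, so these shares are not those of noncoding RNAs alone. A further group, chosen after its values were seen, was the numbered Zfp zinc finger genes, of which 81 of 292 were called lower (27.7%) and 11 higher (3.77%), with a median of -0.52. In RM1 against RM0, 22 of 286 were lower and 10 higher, with a median of -0.08. Across all genes the log2 ratio had a Spearman's rho of 0.06 with GC content and -0.13 with transcript length, and the median was 0.17 in the shortest 25% of genes and -0.13 in the longest. Genes are not independent replicates.

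By the gene ontology terms in the deposited tables, of 66 genes annotated to cytokine activity, 25 were called higher and 10 lower, and of 69 annotated to the immune response, 26 and 9. For the extracellular space, 58 of 191 were higher (30.4%) and 40 lower (20.9%). Chemotaxis genes had 10 higher and 13 lower of 39, and genes of the inflammatory response 19 and 14 of 83. Innate immune response genes had 10 higher and 13 lower of 67, and antigen processing and presentation genes 6 and 2 of 17. For defense response to virus, 1 of 10 was higher and 2 were lower, with a median of -0.02, unlike the written list of antiviral genes. Of 94 DNA replication genes, 25 were lower and 0 higher, of 182 DNA repair genes 43 and 4, and of 69 rRNA processing genes 18 and 0. Of 152 lysosome genes, 29 were higher and 9 lower. Of 1028 mitochondrial genes, 54 were higher and 79 lower (5.25% and 7.68%), both under the background shares. Of the 24 terms looked up, 5 found no gene in these tables.

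Genes that were near absent in 1 library and well measured in the other were few. With 3 counts or fewer in M0 and at least 50 in M1 there were 11: AA467197, Mir147, Iigp1, Serpina3g, Mir1938, Ifi205, BC094916, Heatr9, Vnn3, Cxcl9 and Gm12250. Their counts in M1 ran from 53 for Gm12250 to 526 for AA467197, and in M2 none of them exceeded 4 counts. In the other direction there were 9: Ndc80, Ptgs1, Kif2c, Fbxo5, Hal, Pear1, Zfp709, Exo1 and Kcnn1, with 52 counts for Kcnn1 to 150 for Ndc80 in M0. All 9 were also called lower in RM1 against RM0, and 8 of the 11 were called higher there.

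The irradiated pair received the same polarizing agents, in other libraries and with radiation and possibly time in culture as further differences. In RM1 against RM0, 722 of 11713 genes were called higher (6.16%) and 922 lower (7.87%). Of the 1104 genes called higher in M1 against M0, 545 were called higher there too, which is 49.4% of the 1104 and 75.5% of the 722. Of the 1569 called lower, 678 were called lower there, 43.2% of the 1569 and 73.5% of the 922. Where the irradiated pair could be compared, 1003 of 1036 genes called higher (96.8%) and 1449 of 1494 called lower (97.0%) had a ratio on the same side of 0. The ratios were smaller for 86.8% and 86.7% of them, with medians of 1.46 against 1.05 for genes called higher and -1.42 against -0.95 for those called lower. These genes were chosen by their ratio in M1 against M0, so a smaller ratio in the second pair follows in part from the choice. Of genes called in RM1 against RM0, the ratio in M1 against M0 was the smaller for 268 of 677 called higher (39.6%) and 410 of 891 called lower (46.0%). Across 11569 genes Spearman's rho between the pairs was 0.79, given as a description over genes that share library depth.

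Calls in opposite directions numbered 6 among genes higher in M1 and 4 among genes lower. They are named after their values were seen. Those higher in M1 were 4933408J17Rik, Ccdc38, Lrrc39, Myo1h, Plekha4 and Tssk4, none of which exceeded 27 counts in the 4 libraries. Those lower in M1 were Arhgap4, Mybl1, Poln and Tceanc, of which Tceanc, with 60, 21, 43 and 77 counts in M0, M1, RM0 and RM1, was the best measured.

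Interferon-inducible GTPases had a median of 3.80 in M1 against M0 and 3.04 in RM1 against RM0, over 15 genes that could be compared there. Gbp5 had 12 counts in RM0 and 385 in RM1, a ratio of 5.01, and Irf1 had 404 and 1710, a ratio of 2.31, against 4.78 without irradiation. Cxcl9 had 0 and 3 counts, so no fold can be given. Antiviral genes had medians of 1.36 and 1.33, and MHC class I genes 1.88 and 1.17. Replication and mitosis had medians of -0.35 and -0.36 in the irradiated pair, and ribosome biogenesis -0.97. In the unpolarized libraries, Mcm3 had 924 counts in RM0 against 1441 in M0, and Ndc80 had 66 against 150. Tlr4, which had 1149 counts in RM0 and 711 in RM1, had a ratio of -0.46 there against -2.02 without irradiation. Some genes had larger ratios in the irradiated pair: Ptgs2 had 71098 and 198747 counts, a ratio of 1.72, and Cxcl3 had 787 and 12848, a ratio of 4.26 against 3.45. With 1 library per condition, whether a gene's ratio differs between the pairs was not tested.

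**Figure D5:**
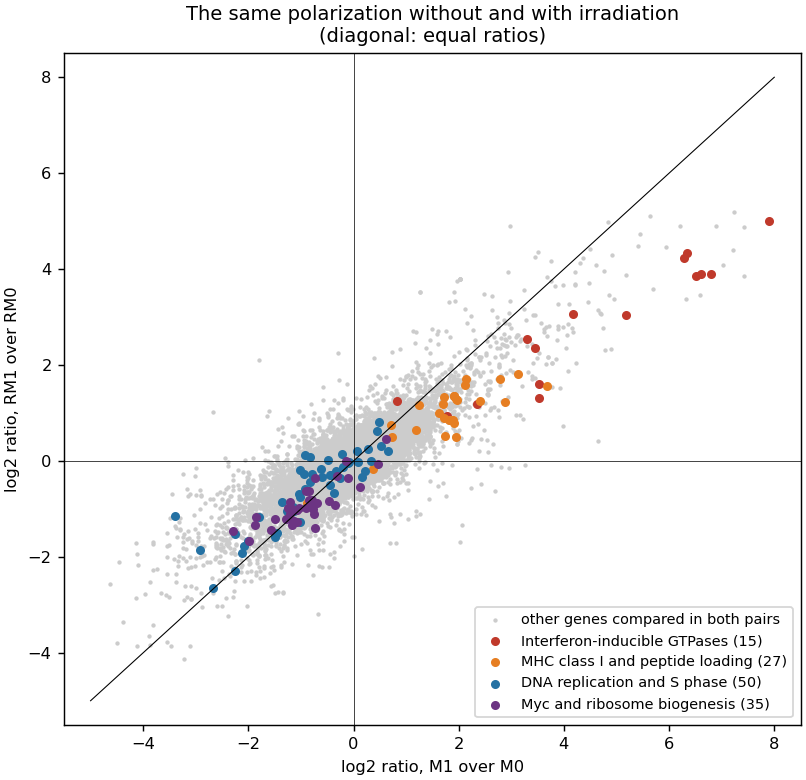
Log2 ratio of RM1 over RM0 against that of M1 over M0 for the 11569 genes compared in both pairs, with 4 gene lists in color and the diagonal of equal ratios. Most genes far from 0 lie between the diagonal and the horizontal axis, such as Gbp5 at 7.90 and 5.01, and the ribosome biogenesis genes lie close to the diagonal, with medians of -0.91 and -0.97.

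Markers of other cell types moved with M1 in a few cases. S100a8, a calcium-binding protein of neutrophils and activated macrophages, had 4580 counts in M0 and 32464 in M1, a log2 ratio of 3.25, and 6667 and 51228 in RM0 and RM1. It was the only 1 of the 12 neutrophil and mast cell markers with 10 counts or more, and S100a9, its usual partner, had 3 counts in M1. Of the 3 fibroblast markers that could be compared, Dcn, with 113 and 627 counts, and Acta2, with 44 and 112, were higher. Lum, with 8 and 14, was also called higher, but it passed the filter of 10 counts only through M1. The summed level of the 12 fibroblast markers was 8.92 scaled CPM in M0 and 51.4 in M1, while the collagen genes that define these cells had 0 to 6 counts. Pecam1 had 11 and 23 counts and was called higher.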

How the data were processed

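RNA sequencing counts of the 2 libraries compared, and of the 4 others, were taken as the authors deposited them, as raw read counts per gene with no normalization. Per the submitters' processing notes, Trimmomatic 0.36, HISAT2 2.2.1, HTSeq 0.11.3 and the mm10 build were used, and the methods name edgeR. The strand setting was not given in the sources used here, so reads of a gene and an antisense or overlapping partner cannot be told apart. RNA from 5 wells was pooled per library, and no library was repeated.

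TMM factors were computed over the 6 libraries with edgeR 4.0.16 in R 4.3.3, and log2 ratios with a prior count of 2. Genes reaching 10 counts in M0 or in M1 were compared, and a 2-fold difference was called. With 1 library per condition the calls rest on no test, and tests that assume a dispersion or an additive effect of irradiation were run only as alternatives. Counting intervals are exact Clopper-Pearson intervals at 95%, and a fold against a library at 0 was set against a floor of 3 counts, per library. Depth was 17894937 to 18870516 counts per library, so genes of few counts have wide intervals. Calculations and plots used Python 3.11.15, pandas 2.3.3, scipy 1.17.1 and matplotlib 3.10.9, and the ratio and call steps were tested on simulated data.

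The comparison and the gene lists were chosen with earlier results of these data known. There were 49 lists, of which 1246 distinct genes were found. Named genes were the 15 with the largest ratios in each direction among those with at least 100 counts in the higher library, the 10 largest gains and losses in scaled CPM, up to 4 called members per direction and the most abundant member of each list, other listed members given as examples of a role, and genes called in opposite directions in the irradiated pair. Dates stood in place of 27 gene symbols, which were recovered by accession. Alternatives were scaling by totals, DESeq2 1.42.0 size factors, TMM over the 2 libraries, another prior count, other count filters, a 4-fold threshold, assumed dispersions, an additive fit over the 6 libraries, and removal of GC content and length trends. Some members of the lists are not reported here.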

Additional observations from a re-analysis of the deposited data

How the results depend on the processing

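No paired analysis was possible because each condition has 1 library and the labels number no replicates, and for the same reason no replicate could be left out. The additive fit below has irradiation as a term and is the nearest to one. With 1104 genes called higher and 1569 lower, the counts were 601 and 2984 with totals, 1144 and 1497 with DESeq2 size factors, 1099 and 1560 with TMM over the 2 libraries, 1126 and 1638 with a prior count of 0.25, 1400 and 1893 without a count filter, 765 and 958 with at least 100 counts, 324 and 329 at 4-fold, and 1095 and 1519 after removal of GC content and length trends. An exact test with an assumed biological coefficient of variation gave 764 and 878 at 0.2 and 111 and 38 at 0.4. An additive quasi-likelihood fit of irradiation and polarization over 6 libraries has 2 residual degrees of freedom and takes the irradiated pair as a repeat. It passed 2739 and 2824 genes, 5563 of the 11804 tested (47.1%), and the DESeq2 form of it passed 2385 and 2089. Of the genes called, 1047 of the 1104 and 1542 of the 1569 were tested, and 964 and 1326 passed. The fit holds the M0 and M1 libraries that chose these genes, so their passing is no separate check. Of 1123 named genes compared, the ratio changed sign for 223 with totals, 7 with DESeq2 size factors, 45 after removal of GC content and length trends and 60 in the additive fit. Among these, 0 were genes called at 2-fold. With totals and DESeq2 size factors this was fixed in advance and is no check. Each moves all ratios by nearly the same amount, which is less than 2-fold. Depth limits genes with few counts, whose intervals are wide.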
